A study of Homo sapiens with 4 samples.

Results

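Keratins are the intermediate filament proteins of epithelial cells, in which 1 type I chain pairs with 1 type II chain. KRT5 (type II) and KRT14 (type I) pair in the basal layer of squamous epithelium, where KRT15 is also found. KRT6A, KRT16 and KRT17 are induced in wounded or hyperproliferative epithelium, KRT13 pairs with KRT4 in the upper layers of the oral mucosa, and KRT8, KRT18 and KRT19 are the keratins of simple epithelium. These 10 genes were chosen by name. Of them, 9 had spots on the arrays, with 15 probes and 1 spot per probe, among 41000 probes carrying 30982 gene names. KRT6A had no spot under its own name and has no value of its own here.

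The genes were measured in FaDu, a line from a hypopharyngeal squamous cell carcinoma (SCC), and HSC3, a line from a tongue SCC. In each line, cells transfected with miR-489 or with miR-504 (Cy5, red) were set against their own line with a control miRNA (Cy3, green), 72 h after transfection. There were 4 arrays, 1 for each line and miRNA, all on 1 slide and read in 1 scan, with no dye swap. The control channel therefore gave 2 control samples per line. The labels do not say whether these were separate cultures or 1 RNA, so the p-values may cover technical spread only. Each line is a single cell line, and dye and treatment cannot be told apart within an array.

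Mature sequences of miR-489 and miR-504 were taken from RefSeq (GRCh38.p14). Which arm the Cy5 samples received is not known. The labels name no arm, so both arms of miR-504 are given; the table used held the 3p arm of miR-489. Capitals mark the seed (bases 2 to 8), which differed among all 3 sequences. The miR-489 arm lies at chr7:93483947-93483968 and the miR-504 arms at chrX:138667760-138667781 (5p) and chrX:138667724-138667744 (3p), all on the minus strand.
hsa-miR-489-3p: gUGACAUCacauauacggcagc
hsa-miR-504-5p: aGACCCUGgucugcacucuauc
hsa-miR-504-3p: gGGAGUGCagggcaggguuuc

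Both lines carried the signals of epithelial cells. All 6 genes listed as squamous markers (TP63, CDH1, EPCAM, DSP, PKP1 and SFN) were well above background in Cy3 on every array. Their summed signal was 34014 to 36196 in FaDu and 39415 to 39545 in HSC3. PKP1 was dim in FaDu, at 91 and 82, and gave 234 and 460 in HSC3. Of 7 mesenchymal markers, 1 was above background on each FaDu array and 2 or 3 in HSC3. The lines differed in VIM (vimentin, the intermediate filament of mesenchymal cells), with Cy3 signals of 45 and 39 in FaDu and 34689 and 27741 in HSC3. Of 4 leukocyte markers 1 or 2 were above background and of 2 endothelial markers 0 or 1, and their summed signals did not exceed 217 and 86. On each array 118 to 137 outlier spots were left out, none of them a keratin spot, and 0 spots were saturated.

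Signals below are background-subtracted medians after the arrays were centred on a common median within each channel. They are compared between samples for 1 probe at a time, not between probes. For genes with several probes, counts use the probe with the highest mean log2 Cy3 signal over the 4 arrays, called the brightest here. The mean of the unlogged signals picks the same probe for every member but KRT14, where it picks A_23_P4335 (12260 against 8558).

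In the control transfectants, KRT14 was the only member that differed between the lines past the test, and it was higher in HSC3. Its brightest probe by mean log2 signal (A_24_P265346) gave Cy3 signals of 6989 and 4935 in FaDu and of 11431 and 10878 in HSC3, on the miR-489 and miR-504 arrays respectively. The groups did not overlap. The log2 difference, FaDu minus HSC3, was −0.93 ± 0.20 (SE, n = 2 per line; limma adjusted p = 0.00779). This call was lost when the FaDu miR-504 array was left out (adjusted p = 0.0521). The other KRT14 probe (A_23_P4335) gave 2268 and 1252 in FaDu against 24767 and 20753 in HSC3, a log2 difference of −3.75 ± 0.28 (limma adjusted p = 0.00016). Both probes put KRT14 higher in HSC3, by 1.90-fold and 13.5-fold, so the size of the difference depends on the probe.

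Of the 9 members, 0 were higher in FaDu and 1 was higher in HSC3 by limma; the shares of all 15729 genes tested were 28.2% and 20.7%. At an unadjusted p under 0.05 the members numbered 1 in each direction. KRT5, the type II partner of KRT14, gave 30006 and 18103 in FaDu and 34163 and 27641 in HSC3, so that the lines overlapped. Its log2 difference was −0.40 ± 0.26 (limma adjusted p = 0.235). Without the FaDu miR-489 array the log2 differences of KRT5 and KRT16 were −0.76 and −0.79, and without the FaDu miR-504 array −0.03 and −0.12.

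KRT13 and KRT15 were dimmer on 1 HSC3 array than on the other 3 arrays. The KRT13 signals were 233 and 150 in FaDu and 54 and 140 in HSC3, a log2 difference of 1.11 ± 0.43 (limma adjusted p = 0.0695). Those of KRT15 were 5458 and 4091 in FaDu and 1680 and 3947 in HSC3, a log2 difference of 0.88 ± 0.38 (limma adjusted p = 0.094). FaDu lay above HSC3 on both arrays for both genes. Without the HSC3 miR-504 array the log2 differences of KRT13 and KRT15 were 1.80 and 1.49. Without the HSC3 miR-489 array they were 0.42 and 0.26, so their size rests on which HSC3 array is kept. By limma KRT13 was called higher in FaDu with a normexp background (0.80, adjusted p = 0.038) and with no background subtraction (0.75, adjusted p = 0.0283).

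The simple-epithelial keratins and KRT17 lay close together in the 2 lines. KRT8 gave 12028 and 12709 in FaDu and 16276 and 11352 in HSC3, and KRT18 gave 38211 and 44847 against 52776 and 43275. KRT19 gave 35544 and 34883 in FaDu and 35971 and 25245 in HSC3, while KRT17 gave 12879 and 8977 against 10957 and 11118. The lines overlapped for all 4 genes. The log2 differences were −0.14 ± 0.20, −0.21 ± 0.17, 0.22 ± 0.20 and −0.04 ± 0.20 (KRT8, KRT18, KRT19 and KRT17), and the limma adjusted p-values were 0.602, 0.359, 0.382 and 0.89. The 2 other bright KRT18 probes (A_23_P99320 and A_24_P42136) gave −0.26 and −0.30 and the other KRT8 probe (A_24_P67395) −0.06. The fourth KRT18 probe (A_24_P924957) was dim, at 31 to 44 in Cy3, and was not well above background on the FaDu miR-489 array.

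**Figure D1:**
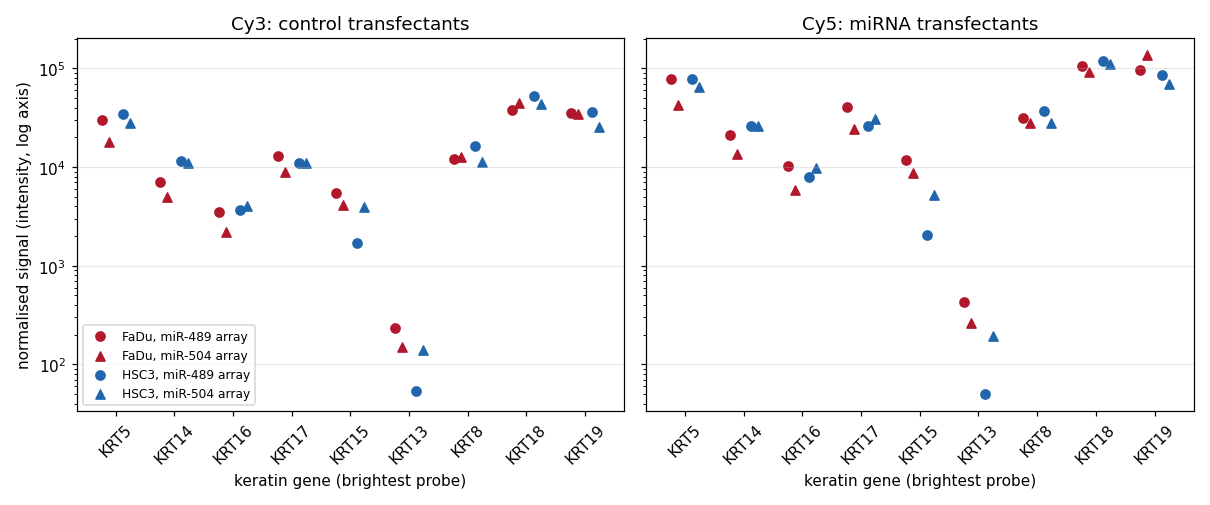
Normalised signal (intensity, log axis) of the brightest probe of each keratin in Cy3 (control transfectants, left) and Cy5 (miRNA transfectants, right); each point is 1 array, red FaDu and blue HSC3, circles miR-489 and triangles miR-504 arrays. Within a gene, KRT14 is lower on both FaDu arrays in Cy3 (4935 and 6989 against 10878 and 11431), and KRT13 and KRT15 are lowest on the HSC3 miR-489 array in both channels.

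The probes of the KRT6 group differed most between the lines among the keratins tested. The probe named KRT6C (A_23_P87653) lists transcripts of KRT6A and KRT6B in RefSeq and another that matched no protein-coding gene there. These near-identical genes could thus not be separated on it. The names KRT6C and KRT6E are those on the arrays and may not match current gene names. It gave Cy3 signals of 610 and 630 in FaDu and of 17450 and 22729 in HSC3, a 32.1-fold difference (log2 −5.01 ± 0.18; limma adjusted p = 1.84e-05). The probe named KRT6E (A_23_P366936) gave 230 and 199 against 6536 and 10341, a 38.4-fold difference (limma adjusted p = 3.67e-05). KRT6B (A_23_P76249) gave 25 and 30 in FaDu, where 1 of the 2 arrays was well above background, and 2324 and 9868 in HSC3. All 3 probes were thus brighter in HSC3 on every array. KRT16, the type I partner of KRT6A, was also brighter on both HSC3 arrays than on either FaDu array, but was not called. Its brightest probe (A_24_P392991) gave 3523 and 2215 in FaDu and 3635 and 4061 in HSC3. The log2 difference was −0.46 ± 0.23 (limma adjusted p = 0.144), and that of the other KRT16 probe (A_23_P38537) −2.94 ± 1.25 (limma adjusted p = 0.0906).

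In the miRNA transfectants (Cy5) the line differences ran the same way for most members, but 0 of 9 were called in either direction by limma, where the shares of 16753 genes tested were 19.4% higher in FaDu and 14.1% higher in HSC3. At an unadjusted p under 0.05, 2 members were higher in FaDu and 0 in HSC3. Both channels share the same spots, so Cy5 is not an independent repeat of Cy3. The brightest KRT14 probe gave 21222 and 13561 in FaDu and 25931 and 25970 in HSC3, a log2 difference of −0.61 ± 0.26 (limma adjusted p = 0.134). The other KRT14 probe was lower in FaDu by 11.4-fold (limma adjusted p = 0.00461), and counted by it 1 of 9 members was called higher in HSC3, an alternative added after the values were seen. With the mean of its probes in place of the brightest, KRT14 was called lower in FaDu in Cy5 (log2 −2.06; adjusted p = 0.00916). KRT15 gave 11780 and 8607 against 2034 and 5168, a log2 difference of 1.63 ± 0.48 (limma adjusted p = 0.0525). KRT13 gave 425 and 262 against 50 and 196, a log2 difference of 1.76 ± 0.68 (limma adjusted p = 0.106). Without the HSC3 miR-504 array the Cy5 differences of KRT13 and KRT15 were 2.75 and 2.31, and without the HSC3 miR-489 array 0.76 and 0.96. The KRT6C and KRT6E probes were 30.2-fold and 35.4-fold lower in FaDu (limma adjusted p = 0.00287 and 0.00301).

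**Figure D2:**
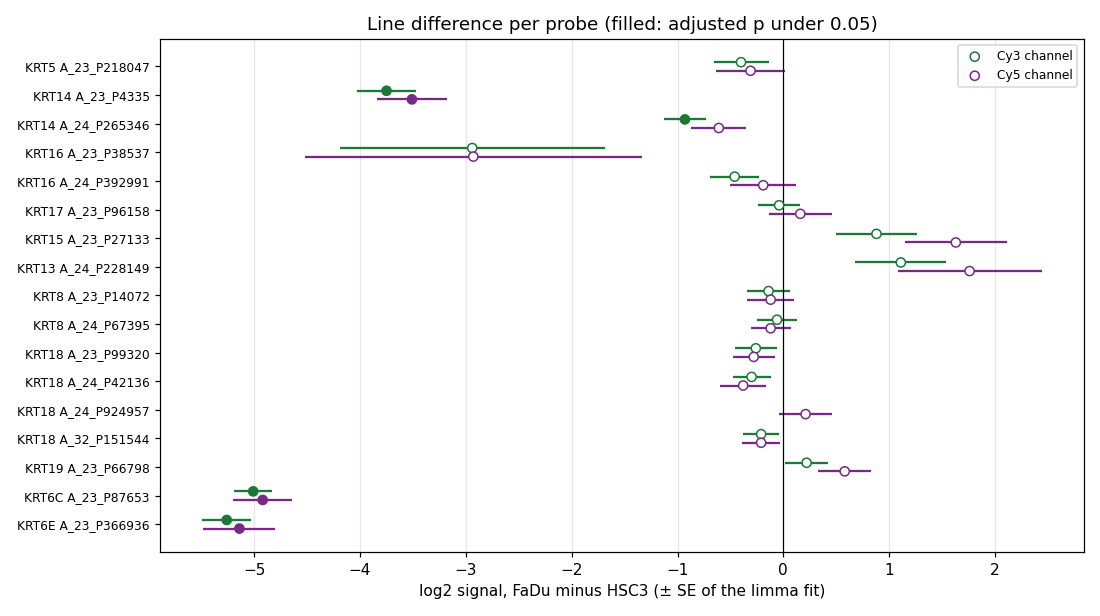
Difference in log2 signal, FaDu minus HSC3 (x axis, ± SE of the limma fit over 2 arrays per line), for each keratin probe in Cy3 (green) and Cy5 (purple); filled points have an adjusted p under 0.05. The KRT6C, KRT6E and both KRT14 probes lie left of 0, from −0.61 to −5.26, and the 2 KRT16 probes lie apart from each other (−0.46 and −2.94 in Cy3).

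Some keratins differed between the 2 arrays of the same line, in both channels at once. The second KRT16 probe (A_23_P38537) gave Cy3 signals of 135 and 70 in FaDu, 155 on the HSC3 miR-489 array and 3589 on the HSC3 miR-504 array. In Cy5 it gave 303, 117, 265 and 7770 in the same order. The HSC3 miR-504 array thus exceeded the other HSC3 array 23.2-fold in Cy3 and 29.3-fold in Cy5, while the brighter KRT16 probe differed by 1.12-fold and 1.25-fold. Which of the probes reports KRT16 was not tested.

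KRT13 and KRT15 were higher on the same HSC3 array by 2.60-fold and 2.35-fold in Cy3 and by 3.97-fold and 2.54-fold in Cy5. Outside the members, KRT6B was 4.25-fold and 7.58-fold higher there. KRT4, the type II partner of KRT13, gave 31 (not well above background) and 191 in Cy3 and 30 and 466 in Cy5 on the HSC3 miR-489 and miR-504 arrays. KRT1, a keratin of the suprabasal epidermis that was picked after its values were seen, gave 69 and 5233 in Cy3 and 49 and 7821 in Cy5. Over 20918 probes the median absolute Cy3 difference between the 2 HSC3 arrays was 0.195 on the log2 scale and the 95th percentile 0.68. KRT13 (−1.38), KRT15 (−1.23) and the second KRT16 probe (−4.54) lay beyond that.

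In FaDu KRT5, KRT14, KRT15, KRT16 and KRT17 were brighter on the miR-489 array than on the miR-504 array, with log2 differences of 0.73 for KRT5, 0.50 and 0.86 for the KRT14 probes, 0.67 for the brighter KRT16 probe, 0.52 for KRT17 and 0.42 for KRT15 in Cy3. In Cy5 the values were 0.87, 0.65, 0.86, 0.78, 0.74 and 0.45 in the same order. KRT13 gave 0.63 and 0.70. The KRT6 probes gave −0.05 and 0.13 (KRT6C), 0.21 and 0.31 (KRT6E) and −0.30 and −1.18 (KRT6B) in Cy3 and Cy5. For the brightest probes of KRT8, KRT18 and KRT19 the Cy3 differences were −0.08, −0.23 and 0.03 and the Cy5 differences 0.17, 0.20 and −0.52, of opposite sign in the channels for each gene. Over all probes the median absolute Cy3 difference in FaDu was 0.151 and the 95th percentile 0.54, which KRT15, KRT17 and the brightest KRT14 probe did not exceed. Over 20751 probes the differences in Cy3 and Cy5 correlated with r = 0.43 in FaDu and 0.68 in HSC3; this is a description across probes that share spots. With 1 array for each, differences between cultures and between arrays cannot be told apart, and no test was possible.

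**Figure D3:**
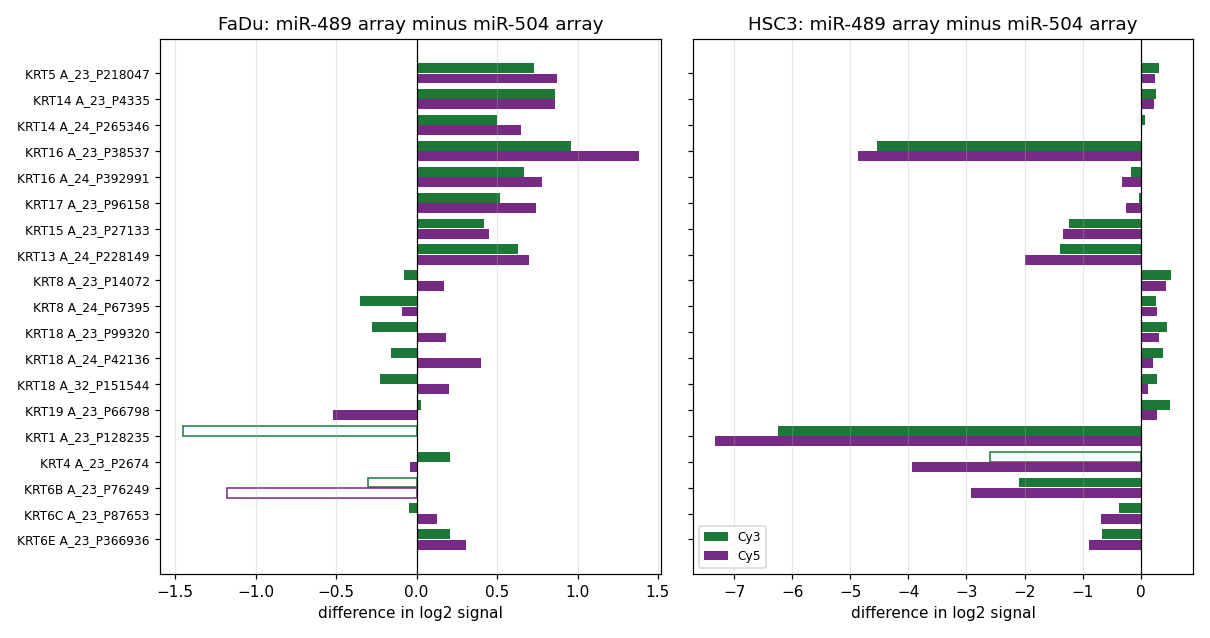
Difference in log2 signal between the 2 arrays of a line, miR-489 array minus miR-504 array (x axis), in FaDu (left) and HSC3 (right, on a wider axis), for keratin probes in Cy3 (green) and Cy5 (purple); open bars have a signal not well above background on at least 1 of the arrays. KRT5, KRT14 and KRT15 lie to the right of 0 in FaDu, and the KRT1 and KRT16 (A_23_P38537) bars in HSC3 reach −6.25 and −4.54 in Cy3.

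After miR-489 and after miR-504, 7 of the 9 members were higher than in the control transfectants with the lines taken as replicates: KRT5, KRT8, KRT14, KRT16, KRT17, KRT18 and KRT19. By limma 0 members were lower. Of 15725 genes tested, 30.5% were called higher and 27.5% lower after miR-489, and 27.1% and 24% after miR-504. Of these 7 genes, 6 or 7 were called under every other treatment of the signals that kept the filter on dim probes, and 3 and 1 were called without that filter. Leaving out a single array left 6 or 7 called higher after miR-489 (6 without the FaDu miR-489 array) and 5 or 7 after miR-504 (5 without either miR-504 array). Without the FaDu miR-489 array KRT13 was called lower after miR-489 (log2 −0.65; limma adjusted p = 0.034).

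The KRT14 log2 ratios, Cy5 over Cy3, were 1.02 (miR-489) and 0.90 (miR-504) in FaDu, and 0.65 (miR-489) and 0.69 (miR-504) in HSC3. They were thus higher on both FaDu arrays. The fit gave 0.84 ± 0.12 after miR-489 (limma adjusted p = 0.00368) and 0.79 ± 0.12 after miR-504 (limma adjusted p = 0.00541). For its partner KRT5 the ratios were 0.79, 0.67, 0.65 and 0.67 in the same order, a rise of 1.65-fold and 1.59-fold (limma adjusted p = 0.00198 and 0.00311). KRT17 gave 1.08, 0.88, 0.72 and 0.91, and the brightest KRT16 probe 0.94, 0.85, 0.59 and 0.70. For the second KRT16 probe the ratios were 0.58, 0.19, 0.25 and 0.55, and it was called after miR-489 (limma adjusted p = 0.0418) and not after miR-504 (limma adjusted p = 0.0669).

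Among the simple-epithelial keratins, KRT8 gave 0.80, 0.57, 0.67 and 0.72 and its partner KRT18 0.89, 0.48, 0.64 and 0.77. KRT19 gave 0.84, 1.42, 0.71 and 0.89, and the FaDu miR-504 value was the highest of any member on any array. On the fit, KRT19 was 1.71-fold higher after miR-489 and 2.23-fold higher after miR-504 (limma adjusted p = 0.00726 and 0.00314). The KRT6C probe, which KRT6A shares, rose by 1.29-fold and 1.34-fold (limma adjusted p = 0.0275 and 0.0207).

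KRT13 and KRT15 were the exceptions, and KRT13 was dim, at 54 to 233 in Cy3. The KRT15 ratios were 0.53 and 0.51 in FaDu and −0.25 and −0.18 in HSC3, and those of KRT13 were 0.29 and 0.24 in FaDu and −0.65 and −0.08 in HSC3. Both lay above 0 on both FaDu arrays and below 0 on both HSC3 arrays. The limma values were 0.14 ± 0.24 and 0.17 ± 0.24 for KRT15 and −0.18 ± 0.23 and 0.08 ± 0.23 for KRT13 after miR-489 and miR-504, with adjusted p-values of 0.647, 0.59, 0.526 and 0.79. In the order of protein-coding genes on chromosome 17, KRT13, KRT15 and KRT19 stand side by side, and the KRT19 ratio was above 0 on all 4 arrays.

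**Figure D4:**
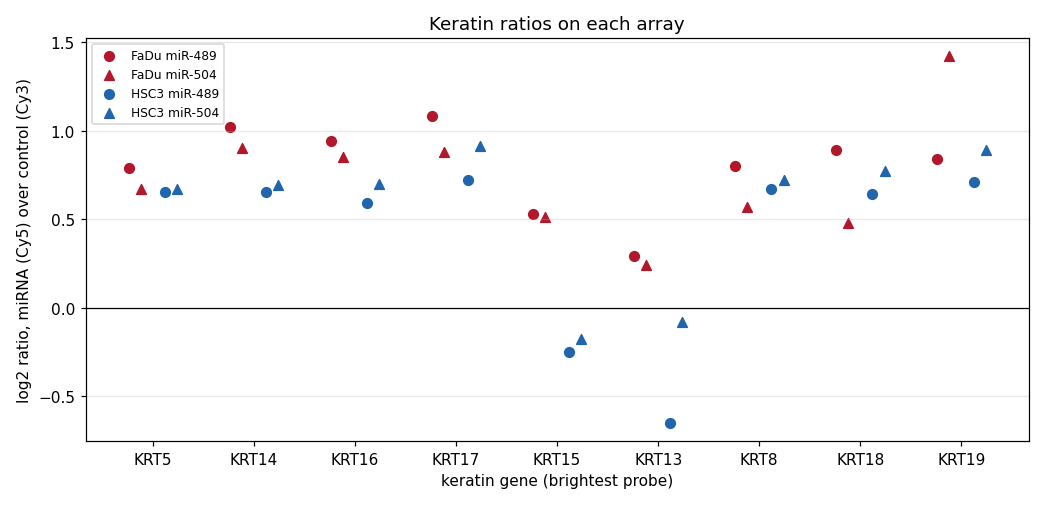
Log2 ratio of miRNA transfectant (Cy5) over control (Cy3) for the brightest probe of each keratin; each point is 1 array, red FaDu and blue HSC3, circles miR-489 and triangles miR-504. Of the 9 genes, 7 lie above 0 on all 4 arrays, and KRT13 and KRT15 lie below 0 in HSC3.

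On single arrays few members reached 2-fold. On the FaDu miR-489 array 2 members (KRT14 and KRT17) were at least 2-fold higher, where 2.93% of all genes were, and on the FaDu miR-504 array 1 member (KRT19), where 2.39% were. On the HSC3 arrays 0 members reached this level, beside 2.77% and 2.04% of all genes (miR-489 and miR-504). No array had a member at least 2-fold lower, beside 8.73% and 5.89% of all genes in FaDu after miR-489 and miR-504, and 7.96% and 4.99% in HSC3.

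The members' median log2 ratios were 0.84, 0.67, 0.65 and 0.70 on the arrays in that order, against −0.01, 0, −0.01 and 0 over all genes. Ratios varied with brightness, and 5 or 6 of the 9 members lay in the top decile of genes by Cy3 signal. The median of that decile was 0.14, 0.08, 0.14 and 0.11. With loess, which removes the trend with brightness, the members' medians were 0.51, 0.45, 0.38 and 0.44, and with the scanner software's own ratios 0.45, 0.43, 0.34 and 0.43, while the medians of that decile lay between −0.15 and −0.11. Under both, 9 members on the FaDu arrays and 7 on the HSC3 arrays stayed above 0. With loess, 8.35%, 11.4%, 13.5% and 10.2% of the genes of that decile lay above the members' median. The part of the dye in these rises was not tested, as no dye was swapped.

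Of the 6 genes listed as squamous markers, 0 were higher and 4 lower after miR-489, and 1 was higher and 3 lower after miR-504 by limma. The shares of all genes were 30.5% higher and 27.5% lower after miR-489, and 27.1% and 24% after miR-504. TP63, a transcription factor of basal squamous cells, gave log2 ratios of −0.93 after miR-489 and −0.46 after miR-504 (limma adjusted p = 0.00426 and 0.0432). SFN (stratifin), a 14-3-3 protein of stratified epithelium, gave −0.85 and −0.89 (limma adjusted p = 0.00239 and 0.00281). The other listed markers varied: DSP gave 0.24 and 0.44, PKP1 −0.37 and 0.73, CDH1 −0.05 and −0.49, and EPCAM −0.36 and −0.19. The part of these genes in the keratin result was not tested.

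Because the dye is the same on every array, the contrast of the miRNAs does not carry a dye effect common to them. In it 0 of 9 members were called by limma in either direction (0 in each at an unadjusted p under 0.05), where 0.305% of genes were called higher and 0.776% lower after miR-489. The contrast was largest for KRT19, at −0.38 ± 0.20 (limma adjusted p = 0.383), and KRT13, at −0.26 ± 0.32 (limma adjusted p = 0.732). For the other 7 members it lay between −0.03 and 0.14. The standard errors were 0.11 to 0.34. As the KRT19 contrast of −0.38 ± 0.20 was not called, differences near this size between the miRNAs could have been missed.

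A test of the difference between the lines' responses was added after the values were seen. It took miR-489 and miR-504 as replicates of a line, so its standard errors hold the spread between different treatments. By limma it called 0 of 9 members and 0% of 15725 genes, with 499 genes at an unadjusted p under 0.05. KRT15 gave 0.74 ± 0.12 and KRT13 0.62 ± 0.23 (FaDu minus HSC3; limma adjusted p = 1 for both).

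RefSeq promoters (250 bases before to 50 after the start, GRCh38.p14) were at hand for 2 members, KRT5 and KRT8, type II genes of basal and simple epithelium that rose together. They are shown 5′ to 3′ with capitals at any match, on either strand, to 5 motifs. These were the TATA box TATAAA and its variant with the letters ATAAAA, the motif TGACTCA that AP-1 factors bind, the GC box, spelled GGGCGG here, and the CCAAT box. Their positions are chr12:52520345-52520644 (KRT5) and chr12:52926420-52926719 (KRT8), minus strand.
KRT5: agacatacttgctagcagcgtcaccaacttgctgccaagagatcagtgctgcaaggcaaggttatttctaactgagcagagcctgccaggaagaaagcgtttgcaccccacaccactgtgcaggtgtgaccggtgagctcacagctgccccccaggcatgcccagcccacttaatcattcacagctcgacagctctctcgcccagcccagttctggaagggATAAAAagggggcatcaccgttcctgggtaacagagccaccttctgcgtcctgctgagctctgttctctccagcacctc
KRT8: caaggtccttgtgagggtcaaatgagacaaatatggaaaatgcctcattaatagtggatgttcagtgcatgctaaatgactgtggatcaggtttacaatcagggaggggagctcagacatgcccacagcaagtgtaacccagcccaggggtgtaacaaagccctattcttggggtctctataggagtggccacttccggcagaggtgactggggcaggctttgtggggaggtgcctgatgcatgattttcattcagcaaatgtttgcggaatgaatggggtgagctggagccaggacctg
KRT5 held 1 ATAAAA, starting at position −29 from the start, and 0 of the other motifs. KRT8 held 0 of the 5. Whether the KRT5 and KRT8 probes measure transcripts from these starts was not tested. Of 35116 promoters, 16% held ATAAAA, 11.5% TATAAA, 4.95% TGACTCA, 45% GGGCGG and 34.6% CCAAT.

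Other keratins were mostly dim. Of 16 listed, 15 had a probe and 6 were tested in Cy3, with 1 higher in FaDu (KRT80, 1546 and 1796 against 217 and 207, 7.86-fold, adjusted p = 5.98e-05) and 2 higher in HSC3: KRT6C, given above, and KRT9 (208 and 97 against 281 and 347, 2.20-fold, adjusted p = 0.0285). The shares of all genes tested were 28.2% higher in FaDu and 20.7% higher in HSC3. KRT3 gave a log2 difference of 0.43 (limma adjusted p = 0.434). In Cy5, 7 were tested, and KRT80 was 5.31-fold higher in FaDu (adjusted p = 0.00351); KRT4 gave a log2 difference of 2.50 (adjusted p = 0.18) and KRT9 −0.82 (adjusted p = 0.178). After miR-489, 2 of 6 were higher and 2 lower, and after miR-504, 2 were higher and 1 lower. The shares of all genes were 30.5% higher and 27.5% lower after miR-489, and 27.1% and 24% after miR-504. KRT80 was 2.75-fold and 2.28-fold higher, and KRT10, of the suprabasal epidermis, 1.86-fold and 1.55-fold lower (adjusted p = 0.00154 and 0.00456). KRT3 gave log2 ratios of −1.04 (adjusted p = 0.0117) and −0.63 (adjusted p = 0.0596). These are limma values. KRT80 and KRT10 thus moved in opposite directions on all 4 arrays.

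Genes of the desmosomes and hemidesmosomes, which anchor keratin filaments, differed in both directions. Of 16, 15 were tested in Cy3, with 4 higher in FaDu and 6 higher in HSC3 (median log2 −0.33). The shares of all genes tested were 28.2% and 20.7%. Periplakin (PPL), a linker at the cornified envelope, was 7.12-fold higher in FaDu, and the desmosomal plakophilin PKP2 1.98-fold. The hemidesmosomal collagen COL17A1 was 5-fold and its partner integrin ITGA6 4.02-fold higher in HSC3. In Cy5 the counts were 3 and 3, beside 19.4% and 14.1% of all genes. PPL was 6.94-fold and PKP2 1.88-fold higher in FaDu, and COL17A1 was 6.04-fold higher in HSC3. PKP1 gave a log2 difference of −1.98 (limma adjusted p = 0.0948).

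After miR-489, 8 of these 15 genes were higher and 3 lower, and after miR-504, 8 were higher and 1 lower. The shares of all genes were 30.5% higher and 27.5% lower after miR-489, and 27.1% and 24% after miR-504. Plakoglobin (JUP) rose 2.66-fold and 2.76-fold, with log2 ratios of 1.47, 1.5, 1.35 and 1.43 on the 4 arrays. ITGA6 rose 1.85-fold after miR-489 and EVPL (envoplakin) 1.72-fold after miR-504, while DSC2 fell by 0.39 and PKP1 by 0.37 on the log2 scale after miR-489 and COL17A1 by 0.48 after miR-504. PKP2 gave 0.02 after miR-504 (adjusted p = 0.863). In the contrast of the miRNAs 1 gene was called, beside 0.305% of all genes higher and 0.776% lower after miR-489. This was PKP1, with log2 ratios of −0.45 and −0.29 after miR-489 and 0.74 and 0.73 after miR-504 in FaDu and HSC3 (limma adjusted p = 0.0362). DSC2 (−0.42) had the next lowest contrast and ITGA6 (0.57) and PKP2 (0.28) the 2 highest, and none was called, nor was any of the other keratins, from KRT3 at −0.41 and KRT10 at −0.27 to KRT7 at 0.03 and KRT80 at 0.27. All of these calls are by limma.

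By the brightest probe on the log2 scale, the member with the largest Cy3 difference between the lines was KRT13 (1.11); the other KRT14 probe differed more (−3.75). Outside the keratins the genes nearest to its Cy3 pattern over the 4 arrays, among 15708 genes, were HSPA12A, AQP3 and PDGFA, at Euclidean distances of 0.24, 0.30 and 0.35 on the log2 scale. AQP3, a water and glycerol channel of epithelia, gave 7304 and 5708 in FaDu and 1808 and 4002 in HSC3. These genes were picked for their likeness to KRT13, so the likeness is not a separate result.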

How the data were processed

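The authors deposited, per the file headers, Agilent Feature Extraction 9.5.3.1 output with median and mean spot intensity and local background per channel, not normalised, and a log10 ratio of processed Cy5 over Cy3. A deposited table of log10 values was identical to the latter (largest difference 0). The paper's methods name another scanner and software. The 0 or 1 spot marks (deposited as other values) served as filters. RNA was from TRIzol.

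Here the background median was subtracted from the spot median, log2 was taken and outlier spots were left out. Signals were centred on the median of probes well above background on all 4 arrays, and ratios on that of probes well above background in both channels (removed: 0.58, 0.65, 0.58 and 0.44). limma 3.58.1 in R 4.3.3 was fitted to 20918 (Cy3), 22494 (Cy5) and 20914 (ratio) probes, with 2 residual degrees of freedom and Benjamini-Hochberg adjustment at 0.05 over all probes. Genes were counted by their brightest probe (mean log2 Cy3). The fits were tested on simulated data. Alternatives were other backgrounds, spot means, the scanner's values, quantile, 75th percentile or loess normalisation, other filters and probes, a block for the cell line and each array left out. The number of arrays limits the precision. Of the lists, the 2 largest rises and falls per comparison were named, and the 3 genes nearest in pattern to 1 member; other names are stated as picked later. The members and lists were chosen with earlier results of these data known. The build of the files' coordinates is not given in the sources used here. Python 3.11.15, pandas 2.3.3 and matplotlib 3.10.9 made the sequence searches and plots.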

Additional observations from a re-analysis of the deposited data

Results flagged for a closer look

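KRT13 and KRT15 had log2 ratios above 0 on both FaDu arrays and below 0 on both HSC3 arrays, so the signs were opposite in the lines; neither gene was called after either miRNA. The FaDu response minus the HSC3 response was 0.62 for KRT13 and 0.74 for KRT15 on the log2 scale. The fit, added after the values were seen, took the miRNAs as replicates and gave a limma adjusted p of 1 for both. For KRT15 the difference was 0.70 to 0.77 with the other backgrounds, spot means, the scanner's ratios and loess, and for KRT13 0.26 (loess) to 0.70 (spot means). The KRT13 signal on the HSC3 miR-489 array was 54 in Cy3 and 50 in Cy5, and without that array the KRT13 difference was 0.34.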

How the results depend on the processing

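Of 711 member values under the alternatives, 633 kept their direction and side of the threshold, 13 gained and 19 lost a call and 46 changed sign; every value that changed sign was uncalled in the fits reported above. The cause of these changes was not tested. Without the filter on dim probes, 4527 genes differed between the lines in Cy3 in place of 7701, 808 in Cy5 in place of 5611, 4352 after miR-504 in place of 8044 and 0 between the miRNAs in place of 170 (2430 at an unadjusted p under 0.05); the share of higher genes was 25.2% in place of 52.5% after miR-489 and 21.1% in place of 53% after miR-504, and the KRT14 line difference was no longer called (adjusted p = 0.0767). The contrast of the miRNAs called 513 genes with normexp (41.7% higher in place of 28.2%), 383 without background subtraction (39.4%), 295 with the scanner's ratios, 612 with loess and 285 with the cell line as a replicate block, which changed no member's call. Leaving out each array gave 5383 to 7555 genes in Cy3, 2615 to 3712 in Cy5, 6601 to 7999 after miR-489, 2686 to 8480 after miR-504 (2686 without the FaDu and 3212 without the HSC3 miR-504 array), 0 to 0 between the miRNAs (1497 to 2713 at an unadjusted p under 0.05) and 0 to 0 for the response difference; a lone array was assumed to vary like the others.

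The members' median ratio, in the order miR-489 and miR-504 in FaDu, then miR-489 and miR-504 in HSC3, was 1, 0.84, 0.81 and 0.82 with no background subtraction, 0.45, 0.43, 0.34 and 0.43 with the scanner's ratios and 0.51, 0.45, 0.38 and 0.44 with loess. It was 0.91 and 0.74 on the FaDu arrays with normexp and 0.58 on the FaDu miR-504 array with the mean of probes. With the scanner's ratios KRT15 was −0.01 after miR-489, and KRT5, KRT14 and KRT17 were −0.04, −0.03 and −0.05 in the contrast. With loess KRT13 was 0.04 and KRT15 −0.05 after miR-489, and KRT5, KRT14 and KRT17 −0.03, −0.02 and −0.06 in the contrast. KRT16 was 0 with normexp, 0.02 with spot means and 0.02 with the mean of probes in the contrast. The response difference of KRT8 was 0.03 with normexp, 0.02 with no background subtraction and 0.01 with loess, and that of KRT18 was 0.02 with normexp, 0 with no background subtraction, 0.01 with spot means, 0 with the scanner's ratios and 0 with loess.

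Leaving out each array, signs changed for these ranges. The Cy3 line difference ran from −0.30 to 0.22 for KRT17, −0.40 to 0.12 for KRT8 and −0.03 to 0.48 for KRT19. In Cy5 it ran from −0.22 to 0.53 for KRT17, −0.74 to 0.13 for KRT5, −0.58 to 0.21 for KRT16 and −0.34 to 0.10 for KRT8. After miR-489, KRT15 ran from −0.25 to 0.53 and KRT13 from −0.65 to 0.29; after miR-504, from −0.18 to 0.51 and −0.08 to 0.24. The contrast ran from −0.02 to 0.12 (KRT5), −0.14 to 0.23 (KRT14), −0.19 to 0.17 (KRT16), −0.18 to 0.19 (KRT17), −0.73 to 0.21 (KRT13), −0.42 to 0.36 (KRT15) and −0.01 to 0.28 (KRT18). The response difference ran from −0.12 to 0.11 for KRT8 and −0.22 to 0.18 for KRT18.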
